A study of Homo sapiens with 6 samples.

Results

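Mitochondrial ribosomal protein genes are the nuclear genes whose symbols are MRPL or MRPS, a number and at most one further letter from A to C. The count tables held 78 of them among 28278 symbols, 49 named for the large subunit (MRPL) and 29 for the small subunit (MRPS), and all 78 had enough counts to be among the 14002 genes tested. Their RNA was measured in HCT116, an established human colon carcinoma line, in 6 RNA-seq libraries. The shControl group (3 libraries) carried a scrambled shRNA, the shTRIM21 group (3 libraries) an shRNA against the E3 ubiquitin ligase TRIM21, and both were delivered by lentivirus. Puromycin at 5 µg/ml began 36 h after infection and lasted 2 to 3 weeks, and all 6 libraries are labelled day 21. Both arms are stable derivatives of the same line, and whether they are pools or clones is not stated. The replicates are labelled biological, with no statement of separate cultures, so p-values measure only the spread between these libraries, which may be technical. The comparison asks whether the 2 subunits' genes differed in RNA level between shTRIM21 and shControl cells, and whether the subunits did so alike.

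The mitochondrial ribosome translates the few mRNAs of mitochondrial DNA, which encode core subunits of the respiratory chain. Its RNAs are transcribed inside the organelle, while its proteins are encoded in the nucleus, made on cytosolic ribosomes and imported. Part of the set descends from bacterial ribosomal proteins and part is found in mitochondria only. Promoters of such nuclear genes are known for sites of NRF1, of ETS factors such as GABPA (NRF-2) and of YY1. Symbols do not always give the subunit: MRPS30 (mL65) and MRPS18A (mL66) sit in the large subunit, and MRPS36 (KGD4) is a part of the 2-oxoglutarate dehydrogenase complex.

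The promoters of the 4 genes that passed the test are shown first, because none of them holds any of the 3 motifs searched. Then follow 3 of the promoters that hold a motif 2 times or hold 2 motifs. The promoters of MRPL20, MRPL22, MRPL36, MRPL45, MRPS18C and MRPS21 also fit that description and are not shown. Each sequence is 300 bases, 250 before and 50 after the gene's RefSeq start (GRCh38.p14), read 5′ to 3′ on the gene's strand. Bases are in lower case, with motif matches on either strand in capitals. For MRPL41 and MRPL48 the window lies wholly downstream of the start of the GENCODE 29 gene model given below. What these windows hold therefore depends on the start used. The windows are chr9:137551629-137551928 (plus strand) for MRPL41, chr2:27771469-27771768 (plus) for MRPL33, chr11:73787624-73787923 (plus) for MRPL48, chr2:75646533-75646832 (plus) for MRPL19, chr12:6493213-6493512 (minus) for MRPL51, chr14:22829637-22829936 (plus) for MRPL52 and chr11:6683291-6683590 (minus) for MRPL17.
MRPL41: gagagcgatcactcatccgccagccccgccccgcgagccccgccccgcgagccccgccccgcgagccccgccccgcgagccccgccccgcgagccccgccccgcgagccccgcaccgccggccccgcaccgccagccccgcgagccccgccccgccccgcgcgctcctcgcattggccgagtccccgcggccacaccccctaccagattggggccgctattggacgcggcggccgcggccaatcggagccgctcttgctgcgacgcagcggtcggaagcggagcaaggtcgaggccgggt
MRPL33: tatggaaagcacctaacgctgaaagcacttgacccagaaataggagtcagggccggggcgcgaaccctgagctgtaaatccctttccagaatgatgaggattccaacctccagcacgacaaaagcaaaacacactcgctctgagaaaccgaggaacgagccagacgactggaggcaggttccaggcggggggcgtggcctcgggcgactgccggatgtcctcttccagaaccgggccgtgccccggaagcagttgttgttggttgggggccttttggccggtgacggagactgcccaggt
MRPL48: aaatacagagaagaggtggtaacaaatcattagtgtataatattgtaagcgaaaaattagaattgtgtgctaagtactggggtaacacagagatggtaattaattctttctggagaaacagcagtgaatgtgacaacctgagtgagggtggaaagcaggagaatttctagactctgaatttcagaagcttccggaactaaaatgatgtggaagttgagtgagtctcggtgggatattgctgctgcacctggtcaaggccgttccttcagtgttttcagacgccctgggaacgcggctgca
MRPL19: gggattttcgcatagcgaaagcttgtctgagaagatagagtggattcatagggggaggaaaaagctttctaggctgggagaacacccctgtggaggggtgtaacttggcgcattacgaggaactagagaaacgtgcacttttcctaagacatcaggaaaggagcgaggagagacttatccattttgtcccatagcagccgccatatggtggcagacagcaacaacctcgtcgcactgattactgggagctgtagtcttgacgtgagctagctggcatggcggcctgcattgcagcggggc
MRPL51: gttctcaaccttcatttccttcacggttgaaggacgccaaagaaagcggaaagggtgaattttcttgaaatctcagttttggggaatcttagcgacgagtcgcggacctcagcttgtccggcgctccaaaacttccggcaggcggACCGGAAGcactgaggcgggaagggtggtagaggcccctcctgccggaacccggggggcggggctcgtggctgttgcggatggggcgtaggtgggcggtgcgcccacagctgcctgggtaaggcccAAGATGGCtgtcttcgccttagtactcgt
MRPL52: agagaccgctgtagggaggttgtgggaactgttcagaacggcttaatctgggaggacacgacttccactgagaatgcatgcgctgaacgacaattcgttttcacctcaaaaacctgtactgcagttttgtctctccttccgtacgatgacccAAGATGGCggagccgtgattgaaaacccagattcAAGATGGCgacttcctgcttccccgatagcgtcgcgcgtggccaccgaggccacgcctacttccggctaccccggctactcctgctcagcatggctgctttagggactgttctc
MRPL17: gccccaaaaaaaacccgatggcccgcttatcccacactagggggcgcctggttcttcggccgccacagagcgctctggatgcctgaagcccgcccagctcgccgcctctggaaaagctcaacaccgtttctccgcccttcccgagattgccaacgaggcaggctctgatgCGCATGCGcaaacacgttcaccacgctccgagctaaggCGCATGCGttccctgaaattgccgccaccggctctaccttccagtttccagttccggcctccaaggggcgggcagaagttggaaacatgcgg
In MRPL51 the capitals mark an ETS motif and then a YY1 motif, in MRPL52 a pair of YY1 motifs, and in MRPL17 a pair of NRF1 motifs. The promoters of the 4 genes differ widely in base composition. MRPL41 has a GC content of 80.7%, MRPL33 59.3%, MRPL19 52.3% and MRPL48 43.3%, against a median of 60.3% over the member promoters.

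RefSeq promoters matched 69 of the 78 genes. The motifs searched, on both strands, were AAGATGGC for YY1, ACCGGAAG for ETS factors and CGCNTGCG for NRF1, of which the ETS and YY1 motifs can overlap by 3 letters. The YY1 motif was in 20 of 69 promoters (29%), against 5.40% of the 10513 promoters of tested genes and 3.03% of all 27305 promoters in the table. The ETS motif was in 10 (14.5%), against 4.47% of tested genes' promoters and 2.32% of all. The NRF1 motif was in 13 (18.8%), against 18.9% of tested genes' promoters and 10.6% of all. Any of the 3 was in 37 (53.6%), against 26.2% of tested genes' promoters and 14.8% of all. The subunits were close to each other for YY1, with 12 of 42 large subunit promoters (28.6%) and 8 of 27 small subunit promoters (29.6%). They were further apart for NRF1, with 10 of 42 (23.8%) against 3 of 27 (11.1%). Cytosolic ribosomal protein genes held the YY1 motif in 7 of 65 promoters (10.8%) and the ETS motif in 7 (10.8%). These are shares of letters found in a fixed window, described without a test.

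The 6 libraries held 22656160 to 27123657 counts, of which the 78 genes took 0.378% to 0.426%. Levels are CPM, the counts scaled to a fixed total per library, with each library total multiplied by its TMM factor, which equalises the bulk of genes between libraries. TRIM21 had raw counts of 288, 286 and 443 in shControl and 225, 182 and 173 in shTRIM21, which fitted as a log2 fold change of -0.73 (SE 0.17, edgeR adjusted p = 0.0124). Without replicate 3 of both groups that change was -0.45 and its adjusted p 0.114. Replicate 3 stood apart in both groups by its low share of ribosomal RNA counts (6.69% in shControl and 9.55% in shTRIM21, against 13.2% to 15.2% in the other 4). Of the epithelial markers 7 of 8 and of the intestinal markers 4 of 4 were tested, with summed levels of 442 to 450 CPM (shControl) and 441 to 476 CPM (shTRIM21) for the first and 59.2 to 62.7 and 57.9 to 63.4 CPM for the second. DSG2 made up 268 CPM of the epithelial level on average and had a fitted change of 0.15, and EPCAM (0.13) and ESRP2 (0.019) were also above 0. KRT8 (-0.20), KRT18 (-0.16), CDH1 (-0.34) and KRT19 (-0.33) were lower in every shTRIM21 library than in any shControl library. Groups without overlap, in either direction, were found in 28.1% of all tested genes, and CDH1 (4.11 CPM) and KRT19 (1.17 CPM) had low levels. The intestinal markers were at 0.30 (CA2), -0.30 (CDX2), -0.094 (VIL1) and -0.086 (CDH17). None of the 7 epithelial and 4 intestinal markers passed the test, and the median change of the epithelial markers was -0.16. The part of these markers in the results was not tested. The 14 markers of fibroblasts, endothelium, leukocytes and hepatocytes had at most 7 counts in any library and none was tested.

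Of the 78 mitochondrial ribosomal protein genes, 2 rose, 2 fell and the rest did not pass the test. At an adjusted p under 0.05 (edgeR's quasi-likelihood test, Benjamini-Hochberg over all tested genes), MRPL41 and MRPL33 rose in shTRIM21, MRPL48 and MRPL19 fell, and 74 did not pass. In bulk RNA, fewer cells with a given RNA and less of it per cell cannot be told apart. The 4 calls are 5.13% of the 78 genes, against 9.08% of all tested genes (4.43% higher and 4.66% lower), so the share lies below the background. All 4 belong to the large subunit, where they are 4 of 49 genes (8.16%), close to the background, while 0 of the 29 small subunit genes passed. Among the 29, 3 had an unadjusted p under 0.05 in edgeR, and DESeq2 and limma-voom called 0 of them too. Over all 78, 13 had an unadjusted p under 0.05, 9 higher and 4 lower, which is 16.7% against 22.8% of all tested genes. In 13 of 78 (16.7%) the CPM of the groups did not overlap, against 28.1% of all tested genes. The difference in calls between the subunits was not tested.

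**Figure D1:**
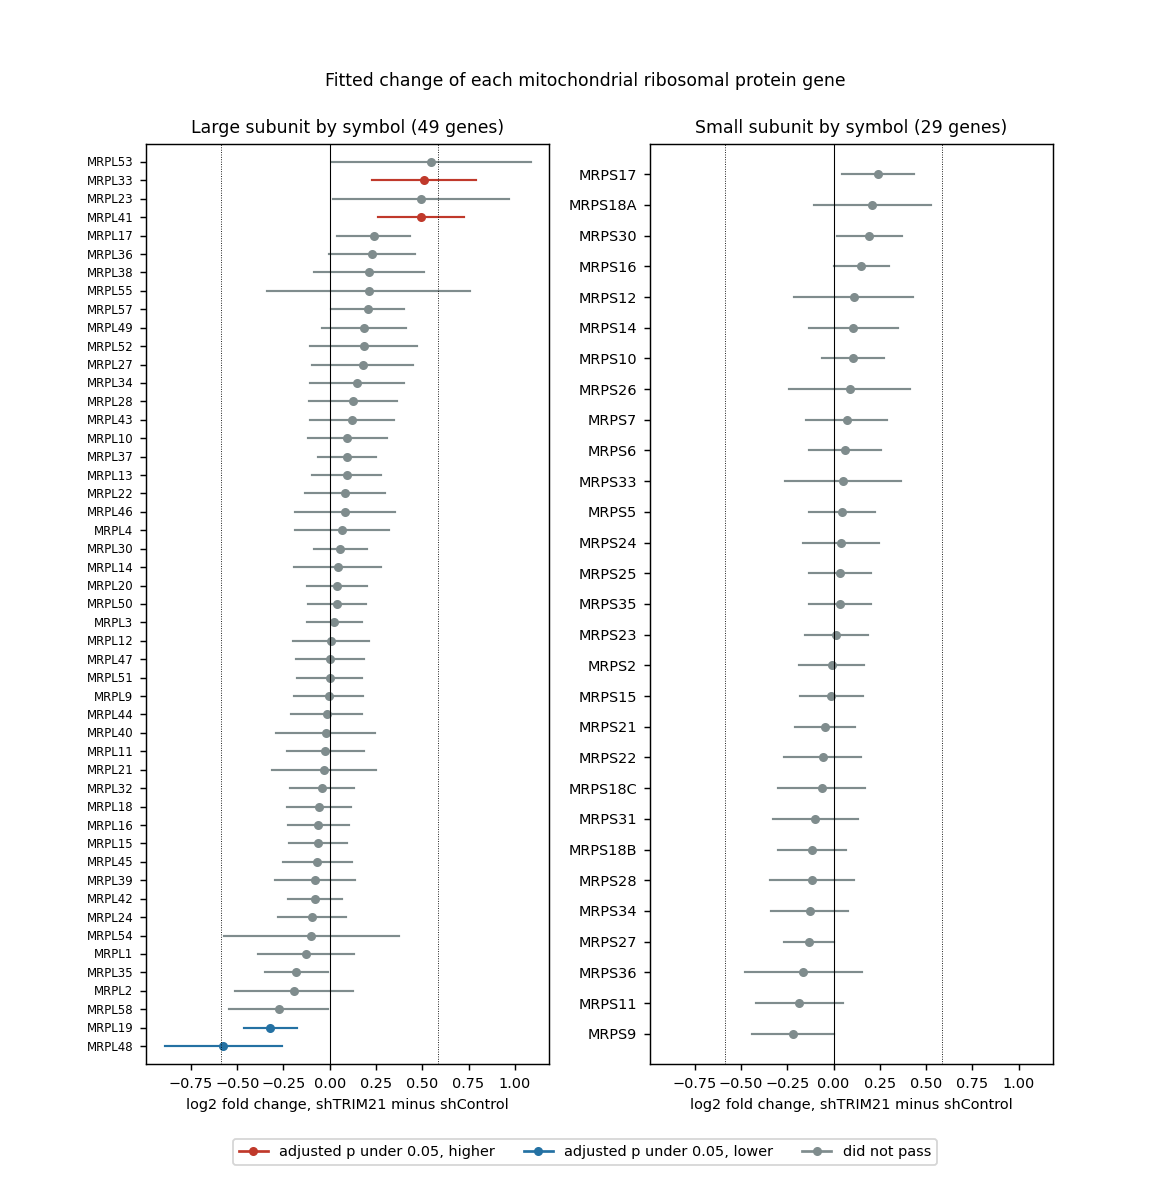
Fitted log2 fold change (x axis, shTRIM21 minus shControl) of each of the 49 large subunit (left) and 29 small subunit genes (right), with the 95% interval as a line and dotted lines at a change of 1.5-fold. Red and blue mark the 4 genes with an adjusted p under 0.05, all in the left panel; the intervals of 71 of the other 74 lie between the dotted lines.

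The intervals give the range of change left by the spread between these libraries in the main fit, and do not include shifts between fits. MRPL12, for instance, had an interval of -0.201 to 0.213 and was at -0.203 once GC content and length were offset. For 71 of the 74 genes that did not pass, the 95% interval of the fold change lay inside 1.5-fold in either direction. The 3 exceptions, MRPL55, MRPL23 and MRPL53, were among the 4 lowest by level, and each of their intervals reached past 1.5-fold on the higher side. For 42 of the 78 the interval lay inside 1.25-fold. The median size of the fitted change, whatever its sign, was 0.093 on the log2 scale, against 0.16 over all tested genes. The median standard error was 0.10, against 0.12 over all tested genes.

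MRPL41 (mL41) is a large subunit protein with no bacterial counterpart, also known as a binding partner of BCL2. The gene lies on the plus strand of chromosome 9 at 137551199 to 137552555 (GRCh38, ENSG00000182154) and overlaps no other annotated exon. Its level was 28.1, 29.5 and 23.0 CPM in shControl replicates 1 to 3 and 41.7, 34.4 and 37.1 CPM in shTRIM21. Every shTRIM21 library was above every shControl library, and the lowest of all was shControl replicate 3. The means were 26.9 ± 3.44 and 37.7 ± 3.71 CPM (SD, n = 3 per group). On the log2 scale the change was 0.49 (SE 0.11, edgeR adjusted p = 0.00945). Its longest transcript has a GC content of 72.0%, the highest of the 78, and once GC content and length were offset the change was 0.32 (edgeR adjusted p = 0.0151). Without shTRIM21 replicate 1 the change was 0.41 (adjusted p = 0.0587).

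MRPL33 (bL33m) is a small protein of the large subunit with a bacterial homologue. The gene model spans 27771717 to 27988087 on the plus strand of chromosome 2 (ENSG00000243147), far beyond its 518-base principal transcript, and 324 of its exonic bases are shared with BABAM2 on the same strand. Its level was 14.1, 14.8 and 16.3 CPM in shControl and 19.7, 25.1 and 19.7 CPM in shTRIM21. The groups did not overlap, and shTRIM21 replicate 2 was the highest. The means were 15.1 ± 1.12 and 21.5 ± 3.15 CPM (SD, n = 3 per group). On the log2 scale the change was 0.51 (SE 0.13, edgeR adjusted p = 0.0222). BABAM2 itself had a fitted change of 0.20 (SE 0.12, edgeR adjusted p = 0.349). Which gene the reads of the shared bases were counted for is not stated in the sources used here. MRPL33 no longer passed when shTRIM21 replicate 2 (0.38, adjusted p = 0.151), shControl replicate 1 (0.46, adjusted p = 0.0895) or shControl replicate 2 (0.50, adjusted p = 0.0662) was left out.

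MRPL48 (mL48), a mitochondrion-specific protein of the central protuberance of the large subunit, fell. It lies on the plus strand of chromosome 11 at 73787316 to 73865133 (ENSG00000175581), overlaps no other annotated exon and has 1 annotated pseudogene. Its level was 19.5, 20.0 and 24.9 CPM in shControl and 14.4, 17.3 and 11.6 CPM in shTRIM21. The groups did not overlap, but replicate 3 was the highest shControl library and the lowest shTRIM21 library. The means were 21.4 ± 2.97 and 14.4 ± 2.83 CPM (SD, n = 3 per group). On the log2 scale the change was -0.58 (SE 0.15, edgeR adjusted p = 0.022). Without replicate 3 of both groups it was -0.31 (adjusted p = 0.18). The call was also lost without shControl replicate 3 alone (-0.45, adjusted p 0.061), shTRIM21 replicate 3 alone (-0.44, 0.124) and shTRIM21 replicate 1 (-0.58, 0.0655).

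MRPL19 (bL19m), a large subunit protein with a bacterial homologue, also fell and, after MRPL3, has the highest CPM of the set. It lies on the plus strand of chromosome 2 at 75646783 to 75690851 (ENSG00000115364), with 132 exonic bases opposite GCFC2. Its level was 204, 184 and 198 CPM in shControl and 147, 166 and 156 CPM in shTRIM21. All shTRIM21 libraries were below all shControl libraries, and replicate 3 was the middle value of both groups. The means were 195 ± 10.5 and 156 ± 9.58 CPM (SD, n = 3 per group). On the log2 scale the change was -0.32 (SE 0.068, edgeR adjusted p = 0.00563). GCFC2 had a fitted change of -0.084 (SE 0.079, edgeR adjusted p = 0.574). MRPL19 was the 1 gene of the 4 that passed in all 16 alternative fits, with changes from -0.36 to -0.28 and adjusted p from 0.000172 to 0.0397.

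**Figure D2:**
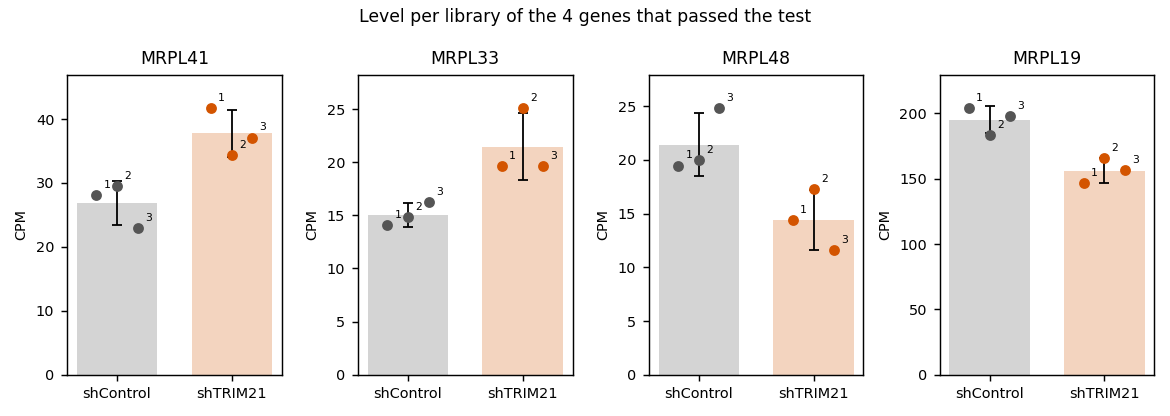
Level in CPM (y axis, starting at 0) of MRPL41, MRPL33, MRPL48 and MRPL19 in each library, with points numbered by replicate, bars for the group mean and error bars of 1 SD (n = 3). The 2 groups do not overlap in any of the 4 panels; replicate 3 holds both extremes of MRPL48, 24.9 CPM in shControl and 11.6 CPM in shTRIM21.

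The median changes of the subunits lay close together. The median log2 fold change was 0.038 over the 49 large subunit genes and 0.036 over the 29 small subunit genes, a difference of 0.0021, beside 0.010 over all tested genes. The quartiles were -0.062 and 0.15 for the large subunit and -0.099 and 0.087 for the small. Fitted changes were above 0 in 29 of 49 and 16 of 29 genes. The large subunit held all 6 genes with a fitted change beyond 0.3 in either direction, and the small subunit 0. Assigned by ribosome structure instead of by symbol, the large subunit had 51 genes with a median of 0.041 and the small subunit 26 genes with a median of 0.025. The median over genes within each library, as a log2 difference from the shControl mean, was -0.021, -0.051 and 0.080 for the large subunit in shControl and 0.057, -0.0074 and 0.041 in shTRIM21. For the small subunit it was -0.0064, -0.014 and 0.053 in shControl and -0.0085, 0.018 and 0.011 in shTRIM21. The highest library of each subunit was shControl replicate 3, and the groups overlapped for both. Over leave-one-out fits the difference between the medians ran from -0.028 to 0.038, so it took both signs.

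Summed over genes, the large subunit reached 2498, 2449 and 2673 CPM in shControl and 2524, 2557 and 2540 CPM in shTRIM21. The group means were 2540 ± 118 and 2540 ± 16.2 CPM (SD, n = 3 per group). The small subunit reached 1385, 1389 and 1443 CPM in shControl and 1395, 1423 and 1423 CPM in shTRIM21, with means of 1406 ± 32.7 and 1414 ± 15.8 CPM (SD, n = 3 per group). The ratio of large to small sums was 1.80, 1.76 and 1.85 in shControl and 1.81, 1.80 and 1.79 in shTRIM21. For the 2 sums and their ratio, the difference between group means was smaller than 1 SD of shControl, where replicate 3 was highest in both sums and in their ratio.

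**Figure D3:**
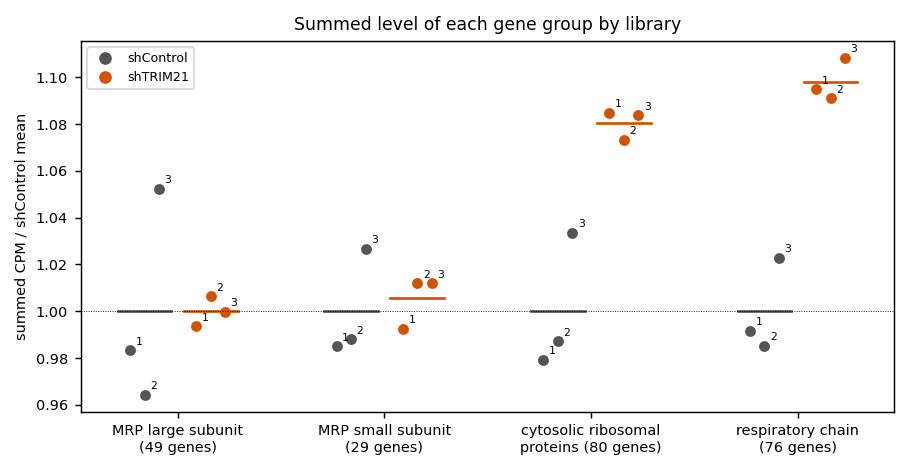
Summed CPM of 4 gene groups in each library, divided by the group's shControl mean (y axis), with points numbered by replicate and short lines for the mean of 3 libraries. The shTRIM21 points of both mitochondrial ribosomal subunits lie inside the range of the shControl points; those of the cytosolic ribosomal protein and respiratory chain genes lie above all shControl points.

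Cytosolic ribosomal protein genes, which make the other ribosome of the cell, and the nuclear respiratory chain genes, whose complexes also hold the products of mitochondrial translation, were measured in the same fit. The 80 cytosolic ribosomal protein genes summed to 40934 ± 1198 CPM in shControl and 44231 ± 261 CPM in shTRIM21 (SD, n = 3 per group), a ratio of 1.08 with no overlap between the groups. Their median log2 fold change was 0.11, 76 of 80 were above 0, and 5 passed the test as higher and 1 as lower (7.50%). Over all tested genes, 7252 of 14002 were above 0 and 9.08% passed. The largest rises were RPS29 (0.33), RPS21 (0.32), RPS2 (0.28) and RPL30 (0.23), and the gene that fell was RPL7L1 (-0.53), a paralogue that works in ribosome assembly. The 76 respiratory chain genes summed to 4449 ± 89.2 and 4885 ± 40.6 CPM (SD, n = 3 per group), a ratio of 1.10, again without overlap. Their median was 0.18, 66 of 76 were above 0, and 11 passed as higher and 1 as lower (15.8%). NDUFA11 (0.60), COX5B (0.47), COX8A (0.46) and NDUFC1 (0.40) rose most, and UQCRC2 fell (-0.46). Against these, the mitochondrial ribosomal protein genes had a ratio of sums of 1.00, a median of 0.036 and 45 of 78 above 0. The 3 lists share all 6 libraries, and no test of the difference between lists was made.

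Levels between genes are compared per kilobase of the principal transcript (CPM per kb, mean ± SD over all 6 libraries). MRPL3 (uL3m), a large subunit protein that reaches the catalytic centre, stood highest at 109 ± 7.17 CPM per kb. MRPL15 (uL15m) followed at 97.0 ± 6.72 and MRPL13 (uL13m) at 92.2 ± 9.64 CPM per kb. MRPL15 and MRPL13 differed by less than either SD, while MRPL3 stood above MRPL15 by more than either SD. In the small subunit MRPS35 (mS35) led at 79.8 ± 6.93 CPM per kb, apart from MRPS2 (uS2m) at 59.0 ± 5.00 and MRPS15 (uS15m) at 51.4 ± 2.05. At the other end were MRPS33 at 2.68 ± 0.19, MRPL55 at 3.21 ± 0.64 and MRPL53 at 4.24 ± 1.30 CPM per kb. The median was 26.0 CPM per kb for the large and 23.3 for the small subunit. Over the union of all annotated exons in place of the principal transcript, MRPL15 led with 93.5 CPM per kb and MRPL13 came to 23.8, so the order depends on the transcript model.

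**Figure D4:**
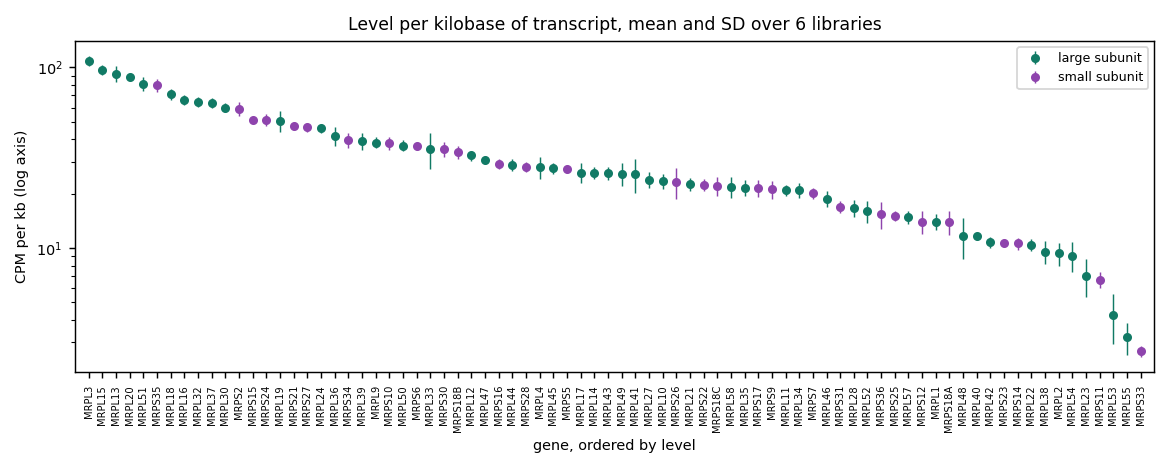
Level per kilobase of principal transcript (y axis, log scale) of the 78 genes in order, as mean and SD over 6 libraries, with the large subunit in green and the small subunit in purple. Both subunits are spread over the whole range, from MRPL3 at 109 to MRPS33 at 2.68 CPM per kb.

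None of these 6 abundant genes passed the test. MRPL3 had 178, 171 and 203 CPM in shControl and 177, 195 and 190 CPM in shTRIM21, a log2 fold change of 0.024 (SE 0.072). MRPL15 had a fitted change of -0.064 (SE 0.075) and MRPL13 one of 0.092 (SE 0.089). MRPL13 was highest in shControl replicate 3, at 113 CPM against 89.6 and 87.9 CPM in the others, and without that library its change was 0.23 (edgeR adjusted p = 0.0338). MRPS35 had a fitted change of 0.036 (SE 0.080), MRPS2 one of -0.0088 (SE 0.084) and MRPS15 one of -0.012 (SE 0.082). Without shControl replicate 3 MRPS35 was at 0.15 and MRPL3 at 0.11, and with the GC and length offset MRPS2 was at -0.15 and MRPL15 at -0.15, none of them past the threshold.

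Of the large subunit genes that did not pass, those with the highest fitted changes were MRPL53 (mL53), MRPL23 (uL23m, at the exit of the peptide tunnel) and MRPL17 (bL17m). MRPL53 had 4.17, 4.94 and 2.88 CPM in shControl and 6.95, 6.38 and 4.21 CPM in shTRIM21, a log2 fold change of 0.55 (SE 0.26, edgeR adjusted p = 0.209). The groups overlapped, and 608 of its exonic bases are shared with CCDC142 on the same strand. MRPL23 had 5.36, 4.05 and 3.49 CPM in shControl and 6.75, 5.93 and 5.45 CPM in shTRIM21, at 0.49 (SE 0.23, edgeR adjusted p = 0.2). Its groups did not overlap, at raw counts of 98 to 131 and 132 to 172, and 28.1% of all tested genes had no overlap. MRPL17 had 43.6, 47.3 and 51.1 CPM in shControl and 56.5, 61.6 and 49.3 CPM in shTRIM21, at 0.24 (SE 0.094, edgeR adjusted p = 0.132). It passed without replicate 3 of both groups, at 0.39 (adjusted p = 0.00908), and without shControl replicate 3, at 0.30 and 0.042.

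The lowest fitted changes among large subunit genes that did not pass were those of MRPL58, MRPL2 and MRPL35. MRPL58 (ICT1), a peptidyl-tRNA hydrolase built into the ribosome, had 20.6, 20.1 and 22.9 CPM in shControl and 15.7, 17.1 and 19.8 CPM in shTRIM21. The groups did not overlap, as in 28.1% of all tested genes, and the log2 fold change was -0.28 (SE 0.13, edgeR adjusted p = 0.201). MRPL2 (uL2m) was at -0.19 (SE 0.15) and MRPL35 (bL35m) at -0.18 (SE 0.081), with adjusted p of 0.487 and 0.193 in edgeR. In MRPL35 the 3 shTRIM21 libraries held 74.5 to 75.9 CPM and the shControl libraries 79.3 to 96.6 CPM, with replicate 3 highest, and without shControl replicate 3 the change was -0.074.

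In the small subunit the highest fitted changes were those of MRPS17 (uS17m) and of MRPS18A and MRPS30, both large subunit proteins by structure. MRPS17 had 35.2, 36.2 and 37.7 CPM in shControl and 38.9, 44.97 and 45.2 CPM in shTRIM21, at 0.24 (SE 0.093, edgeR adjusted p = 0.118). Its groups did not overlap, and 583 of its exonic bases are shared with NIPSNAP2 or AC092647.5 on the same strand. MRPS30 had 55.2, 53.4 and 56.4 CPM in shControl and 57.0, 63.7 and 68.0 CPM in shTRIM21, at 0.19 (SE 0.083, edgeR adjusted p = 0.166). Its groups did not overlap either, which held for 28.1% of all tested genes. The lowest were MRPS9 (uS9m) at -0.22 (SE 0.11), MRPS11 (uS11m) at -0.18 (SE 0.11) and MRPS36 at -0.16 (SE 0.15), with adjusted p of 0.231, 0.357 and 0.571 in edgeR.

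The 3 MRPS18 paralogues descend from the bacterial protein S18 and take different places, MRPS18A (mL66) in the large subunit and MRPS18B (mS40) and MRPS18C (bS18m) in the small. MRPS18A had 15.1, 13.0 and 13.1 CPM in shControl and 19.1, 14.6 and 13.8 CPM in shTRIM21, at 0.21 (SE 0.15). Without shTRIM21 replicate 1, its highest library, the change was 0.052, and with the GC and length offset 0.060. MRPS18B was at -0.12 (SE 0.088) and MRPS18C at -0.064 (SE 0.11), and the groups overlapped for all 3. With the offset MRPS18B was at -0.21, and without shControl replicate 3 MRPS18C was at 0.092, the opposite sign. Per kilobase MRPS18B was highest of the paralogues at 33.9 CPM per kb, with MRPS18C at 22.05 and MRPS18A at 13.9. MRPS18C shares 1956 exonic bases with ABRAXAS1 on the opposite strand, so its counts may hold reads of that gene.

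MRPL12 (bL12m), of the stalk that recruits translation factors and also known to bind the mitochondrial RNA polymerase, had 36.7, 31.1 and 32.4 CPM in shControl and 35.0, 31.7 and 33.9 CPM in shTRIM21. Its fitted change was 0.0062 (SE 0.099), and -0.20 (edgeR adjusted p = 0.215) with the GC and length offset. MRPL32 (bL32m), whose precursor the m-AAA protease processes before the protein joins the ribosome, was at -0.042 (SE 0.082), and at 0.075 without replicate 3 of both groups. For both genes the groups overlapped, and with all 6 libraries and no offset the 95% interval lay inside 1.25-fold.

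Classed by uniform protein name, with both subunits pooled, the medians lay close together, too. These classes put MRPS18A (mL66) and MRPS18B (mS40) among the mitochondrion-specific genes, although both descend from S18. The 46 genes classed as having a bacterial homologue had a median log2 fold change of 0.040 and the 31 classed as mitochondrion-specific one of 0.036. Each class held 1 gene that rose and 1 that fell: MRPL33 and MRPL19 in the first, MRPL41 and MRPL48 in the second. Split by subunit as assigned by structure, the mitochondrion-specific medians were 0.082 in the large (21 genes) and -0.022 in the small (10 genes). For the bacterial homologues they were 0.032 (30 genes) and 0.044 (16 genes). These differences were not tested. By promoter motif, the 20 genes with the YY1 motif had a median of 0.056 and the 49 matched genes without it 0.024. For the ETS motif the medians were 0.0076 (10 genes) and 0.041 (59 genes), and for NRF1 0.053 (13 genes) and 0.030 (56 genes). The calls among genes that hold each motif were 0, and the 4 calls were all in genes whose window holds none. Of all tested genes 9.08% passed, so 0 calls in lists of 10 to 20 genes is near the background. The 37 genes that hold any of the 3 motifs also had 0 calls, and this was not tested against the background. The genes lie on 21 chromosomes, with at most 8 on one, chromosome 2, where MRPL33 and MRPL19 are.

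GC content was weakly correlated with the fitted changes across genes when all 6 libraries were used. Over the 78 genes, Pearson's r between the log2 fold change and the GC content of the longest transcript was 0.28 and Spearman's rho 0.26, and over 13454 tested genes with a gene model r was 0.17. Genes share libraries and are not independent replicates, so these are descriptions. The 20 genes with a GC content of 55% or more had a median change of 0.098, the 28 between 45% and 55% one of -0.0020 and the 30 under 45% one of 0.019. Over all tested genes the same classes had medians of 0.095, 0.023 and -0.052. Within shControl, replicate 3 stood apart, with a median difference from the shControl mean of -0.085 for the GC-rich genes and 0.12 for those under 45%. The values were 0.096 and -0.057 in shControl replicate 1 and 0.051 and -0.076 in replicate 2. In shTRIM21 replicates 1 to 3 the GC-rich genes were at 0.24, -0.011 and 0.033, so shTRIM21 replicate 1 was the highest of all libraries. Genes under 45% were at -0.037, 0.032 and 0.019 in shTRIM21. Without replicate 3 of both groups r was 0.076 and rho -0.028, and with the GC and length offset r was -0.087 and rho -0.16. The offset brought MRPL58 (-0.38, adjusted p 0.0357), MRPS34 (-0.33, 0.0112) and MRPS30 (0.25, 0.0141) past the threshold in edgeR and kept the other 4. The part of GC content and library composition in the calls was not tested beyond these fits.

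**Figure D5:**
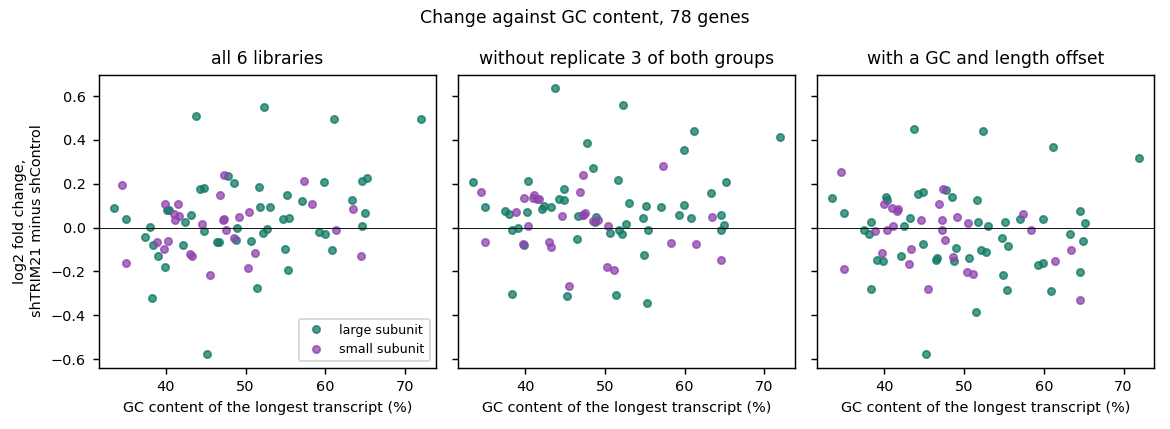
Log2 fold change of each of the 78 genes (y axis) against the GC content of its longest transcript in percent (x axis), with all 6 libraries (left), without replicate 3 of both groups (middle) and fitted with GC content and length offset (right). Pearson's r is 0.28, 0.076 and -0.087 from left to right; the rightmost point of each panel is MRPL41.

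Genes that act with the ribosome were read from the same fit. Of 26 assembly factors 1 rose, RPUSD4, a pseudouridine synthase for mitochondrial RNAs, from 27.2, 23.3 and 31.5 CPM in shControl to 39.0, 38.4 and 41.1 CPM in shTRIM21. Its log2 fold change was 0.53 (SE 0.11, edgeR adjusted p = 0.00456), and all shTRIM21 libraries were above all shControl libraries. Of 19 translation factors 1 fell, GFM1, the elongation factor EF-G1, from 111, 114 and 131 CPM to 101, 97.1 and 97.8 CPM. Its change was -0.27 (SE 0.074, edgeR adjusted p = 0.0281), and -0.17 (adjusted p = 0.128) without replicate 3 of both groups, the highest shControl library being replicate 3. That call was lost without shControl replicate 3, where the change shrank to -0.18, and without shTRIM21 replicate 1, 2 or 3, where it stayed at -0.28, -0.26 and -0.26. In edgeR 0 of 5 other subunits (DAP3 among them), 0 of 18 transcription and RNA processing genes tested and 0 of 9 proteases and chaperones passed, with 2, 4 and 1 at an unadjusted p under 0.05. Over all tested genes 9.08% passed and 22.8% had an unadjusted p under 0.05, so at these list sizes 0 or 1 call is near the background. DESeq2 called 0, 1 and 0 of them. The median log2 fold changes were 0.023 for assembly factors, 0.018 for translation factors, 0.029 for the other subunits, -0.026 for transcription and RNA processing and -0.0033 for proteases and chaperones, all near the 0.010 of all tested genes.

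Of 8 tested transcription factors of nuclear genes for mitochondria, 2 fell and 0 rose, in a list of few genes beside 4.66% lower among all tested genes. GABPB1, the subunit that carries the activation domain of the ETS factor GABP, had 54.0, 61.7 and 66.4 CPM in shControl and 46.9, 45.9 and 42.8 CPM in shTRIM21. The change was -0.43 (SE 0.090, edgeR adjusted p = 0.00534), and it passed in all 16 alternative fits. YY1 had 152, 163 and 171 CPM in shControl and 128, 138 and 143 CPM in shTRIM21, at -0.25 (SE 0.069, edgeR adjusted p = 0.028). The groups of both genes did not overlap, which held for 28.1% of all tested genes. The YY1 call was lost in 4 of the 6 fits that left out 1 library: without shControl replicate 2 (-0.25, adjusted p 0.0803) and without shTRIM21 replicate 1 (-0.21, 0.119), 2 (-0.26, 0.0902) or 3 (-0.29, 0.0579). MYC, a general activator of ribosome genes, was the 1 factor with a fitted change above 0, at 0.19 (SE 0.060, edgeR adjusted p = 0.0558). The genes whose promoters hold the YY1 or ETS motif had, as given above, median changes of 0.056 and 0.0076, with 0 calls. At these list sizes 0 calls is near the background of 9.08% among all tested genes.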

How the data were processed

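Each library came as 1 table of raw counts by symbol, as the authors deposited it. The submitters' processing notes name TopHat2 2.1.1, the hg38 genome, edgeR 3.38.1 and limma 3.52.2. Per the labels' protocols, Trizol RNA was depleted of ribosomal RNA. The counter, its annotation and its strand setting were not given in the sources used here, so 29 genes with exons opposite another gene may hold its reads. In 16 genes exons overlap those of another gene on the same strand, and 37 genes have neither overlap. Counts were tested with edgeR 4.0.16 in R 4.3.3 (filterByExpr, TMM, quasi-likelihood test, Benjamini-Hochberg over 14002 genes, threshold 0.05), after a test on simulated data. SE is the log2 fold change divided by the square root of F. Alternatives covered scaling, filters, DESeq2 1.42.0, limma-voom 3.58.1, a replicate block, left-out libraries and a GC and length offset (mgcv 1.9.3). Positions and lengths come from GENCODE 29; pseudogenes are those named for a member there. Depth was 22656160 to 27123657 counts per library. Members and lists were chosen with earlier results of these data known. Named genes are TRIM21, members past the threshold, the 3 most abundant, 3 highest and 3 lowest unpassed of each subunit, 7 listed members and up to 4 passed genes per list and direction; the GC classes, MRPS34, MRPS33, MRPL55, MYC, the neighbouring genes and the 3 motif-bearing promoters were added after values were seen. Mitochondrial genes were not analysed here.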

Additional observations from a re-analysis of the deposited data

How the results depend on the processing

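Of the 78 genes, 69 passed in none of the main and 16 alternative fits. All 4 calls held under other scaling, filters, DESeq2, limma-voom and the GC offset. Leaving out 1 library gave 1 to 4 genes higher and 1 to 2 lower, a median of -0.022 to 0.066 for the large subunit, of -0.011 to 0.033 for the small, and a difference of -0.028 to 0.038. Without replicate 3 of both groups, 1 gene was lower. With the GC and length offset 4 were lower, and the medians were -0.028 (large) and -0.011 (small). Adjusted p over the alternatives in edgeR, DESeq2 and limma ran from 0.000355 to 0.0587 for MRPL41, 0.00574 to 0.151 for MRPL33 and 0.00131 to 0.18 for MRPL48. Over all tested genes, the deviations of same-numbered libraries from their group means were barely correlated (0.096, -0.012 and 0.091). Replicate 3 nevertheless had the lowest share of ribosomal RNA counts in both groups. The fit with a replicate block gave 2 genes higher and 2 lower, with medians of 0.038 and 0.035. The causes of these shifts were not tested. Depth limits the lowest genes: at 69 to 177 counts per library, MRPL55, MRPL53 and MRPL23 had standard errors of 0.23 to 0.26, and changes beyond 1.5-fold lie inside their 95% intervals.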

Other observations

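A pair of sequences of 7 bases, AGTGGAA and GTGTCAC, had been picked earlier from the fold changes of these same libraries as 3′ UTR sequences, so they give no independent evidence. In the longest annotated 3′ UTR, AGTGGAA was in 8 of 78 mitochondrial ribosomal protein genes (10.3%), against 16.1% of 12000 tested genes with an annotated 3′ UTR, and GTGTCAC was in 4 (5.13%), against 9.85%. The median length of that 3′ UTR was 494 bases in the members and 1374 bases in the tested genes. None of the 4 genes that passed the test held either sequence. The medians of the log2 fold change were 0.036 in the 8 genes with AGTGGAA and 0.074 in the 4 with GTGTCAC, against 0.036 over all 78.

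Pseudogenes named for 34 of the 78 genes are annotated, 75 in all, with MRPS21 having 8. How reads shared between a gene and its pseudogenes were counted is not stated in the sources used here. The 34 genes had a median log2 fold change of 0.012 and 1 call, MRPL48 (2.94%, against 9.08% of all tested genes). The 29 genes with exons opposite another gene had a median of 0.037 and 1 call, MRPL19 (3.45%). The 49 without had a median of 0.036 and 3 calls (6.12%), so both shares lie below the 9.08% of all tested genes.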
